A study of Mus musculus with 9 samples.

Results

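Cardiac and slow skeletal troponins were followed in E10.5 mouse hearts from which *Ctcf* had been deleted with *Nkx2.5-Cre*. The 5 genes were taken by name and not by a threshold on their values, although earlier results of these data were known when they were chosen: *Tnnt1* and *Tnni3*, which lie side by side on chromosome 7, *Tnnt2* and *Tnni1*, which are neighbours on chromosome 1, and *Tnnc1* on chromosome 14. They account for 6 of the 14011 rows of the expression table, because *Tnnc1* was annotated as 2 gene models. All 6 rows had values in all 9 libraries and entered the tests.

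RNA-seq was carried out on polyA RNA from pools of 6 hearts, with 3 libraries for each of 3 genotypes. Homozygotes were *Ctcf* fl/fl; *Nkx2.5-Cre*/+, in which both *Ctcf* copies can be recombined in cardiac progenitors and the cells that derive from them. Heterozygotes were *Ctcf* fl/+; *Nkx2.5-Cre*/+ and carry the same Cre with 1 floxed copy. Controls had no Cre. Their sample labels give *Ctcf* fl/fl, whereas the study gives *Ctcf* fl/+ for RNA-seq and either genotype for its controls in general. All embryos came from crosses of *Ctcf* fl/+; *Nkx2.5-Cre* with *Ctcf* fl/fl animals on a mixed strain background. The comparison of homozygotes with controls therefore differs in Cre as well as in *Ctcf*, while homozygotes and heterozygotes both carry Cre. Cells outside the Cre lineage keep *Ctcf*, and each library is an average over whole hearts, so fewer cells of a type and less RNA per cell cannot be told apart. Separate pools were called biological replicates by the study.

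The troponin complex sits at intervals along the actin filament of striated muscle and makes contraction depend on calcium. Troponin C binds calcium, troponin I blocks the interaction of actin with myosin until calcium is bound, and troponin T anchors the complex to tropomyosin. Cardiac muscle uses *Tnnc1* (the troponin C shared by cardiac and slow skeletal muscle), *Tnnt2* (cardiac troponin T) and, in the adult, *Tnni3* (cardiac troponin I). The embryonic heart mainly makes the slow skeletal troponin I, *Tnni1*, which is replaced by *Tnni3* as cardiomyocytes mature. *Tnnt1* encodes slow skeletal troponin T. CTCF is a DNA-binding protein that, with cohesin, shapes chromatin loops and the boundaries between neighbouring regulatory domains, and troponin genes are therefore described here together with their neighbours.

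In the NCBIM37 build, *Tnnt1* (ENSMUSG00000064179) occupied chr7:4456172-4467984 and *Tnni3* (ENSMUSG00000035458) chr7:4469907-4475831, both on the minus strand. *Tnni3* lay upstream of *Tnnt1* in the direction of transcription, with 1922 bases between the gene bodies. *Tnni1* (ENSMUSG00000026418, chr1:137679642-137707566) and *Tnnt2* (ENSMUSG00000026414, chr1:137737452-137748837) were both on the plus strand, 29.9 kb apart, with *Lad1* between them. *Tnnc1* lay within *Nisch*, on the other strand and with no exonic base in common, at chr14:32021498-32024915 (ENSMUSG00000021909). Its second gene model (ENSMUSG00000091898, chr14:31983021-32024915) shared 1041 exonic bases with the first, 99.1% of its own exons. The reads were divided between both rows almost evenly, so neither row alone is the level of the gene, and their sum is used where levels are compared.

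The promoters of *Tnnt1* and *Tnni3* are shown because these neighbours were the members that changed, in opposite directions. Each is the 250 bases before the RefSeq start site (sequence of the GRCm38.p6 promoter table), which matched the NCBIM37 genome once, at chr7:4467578-4467827 and chr7:4474131-4474380, minus strand. Capitals mark the motif matches described after the sequences.
Tnnt1: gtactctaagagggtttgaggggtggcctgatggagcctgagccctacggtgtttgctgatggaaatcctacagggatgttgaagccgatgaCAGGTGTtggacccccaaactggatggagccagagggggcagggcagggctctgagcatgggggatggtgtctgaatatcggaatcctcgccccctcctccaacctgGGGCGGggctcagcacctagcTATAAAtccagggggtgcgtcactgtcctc
Tnni3: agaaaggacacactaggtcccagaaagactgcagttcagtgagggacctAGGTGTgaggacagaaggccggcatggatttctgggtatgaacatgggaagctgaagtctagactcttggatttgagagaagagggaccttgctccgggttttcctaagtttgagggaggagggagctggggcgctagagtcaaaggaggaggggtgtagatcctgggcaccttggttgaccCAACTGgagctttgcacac

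10 motifs were searched on both strands. The *Tnnt1* promoter held a TATA box (TATAAA) starting 30 bases before the start site, a GC box (GGGCGG), an E-box (CANNTG) and a T-box half-site (AGGTGT) that overlaps the E-box. The *Tnni3* promoter held an E-box and a T-box half-site and no TATAAA. Among 32851 mouse promoters of the same length, 12.4% held TATAAA, 32.7% GGGCGG, 66.2% CANNTG and 11.8% AGGTGT. Neither sequence held the letters searched for GATA factors (GATA with A or T before it and A or G after it, found in 26.5% of promoters), TEAD factors (CATTCC, 12.6%), NKX2-5 (AAGTG with T or C before it, 18.4%), MEF2 (2.92%), the SRF CArG box (1.47%) or the core of the CTCF motif (7.17%), which says only that these letters are absent from these windows.

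The coding starts of both troponin I genes are shown because the proteins differ there, and the balance between these genes is one of the measures below. They come from the longest coding transcripts of GENCODE M1, and capitals mark the 96 bases of *Tnni3*, that is 32 codons, that precede the first codon aligned with *Tnni1*. This stretch encodes the cardiac-specific amino-terminal extension, the part of cardiac troponin I that protein kinase A phosphorylates.
Tnni3: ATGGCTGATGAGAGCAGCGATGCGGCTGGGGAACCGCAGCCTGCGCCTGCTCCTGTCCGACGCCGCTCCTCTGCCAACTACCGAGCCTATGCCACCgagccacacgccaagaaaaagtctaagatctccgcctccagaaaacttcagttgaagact
Tnni1: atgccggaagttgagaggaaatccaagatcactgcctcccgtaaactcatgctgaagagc

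The coding sequences ran to 211 codons in *Tnni3*, 187 in *Tnni1*, 302 in *Tnnt2*, 262 in *Tnnt1* and 161 in *Tnnc1*. Over 179 aligned codons, 63.1% encoded the same residue in *Tnni3* and *Tnni1*, and over 261 aligned codons 70.9% did so in *Tnnt1* and *Tnnt2*. No other place in the genome matched any member transcript at 95% identity or more once both *Tnnc1* models were set aside. *Tnni3* shared 86 exonic bases, 4.46% of its exons, with the neighbouring gene *6030429G01Rik* on the same strand.

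Libraries held between 4294537 and 11629365 reads. Values are given as CPM, that is whole reads plus 0.5 scaled to the TMM-adjusted library total, as deposited. *Ctcf* was at 121, 122 and 122 CPM in controls, 101, 94.2 and 97.0 in heterozygotes and 79.6, 80.0 and 84.7 in homozygotes, so its level followed the labels in every library. The homozygote value was 0.57 lower than the control value on the log2 scale (SE 0.056, adjusted p = 2.91e-05). The 15 cardiomyocyte markers were all present, with a summed level of 17335 to 20352 in controls, 19621 to 23253 in heterozygotes and 15493 to 19054 in homozygotes, and 2 of them rose and 4 fell in homozygotes against controls, where 7.19% of all genes rose and 8.03% fell. Against heterozygotes none rose and 8 fell, with a median log2 difference of −0.47, where 6.87% of all genes rose and 6.70% fell. All 9 erythroid markers rose in homozygotes against controls, their summed level being 31826 to 46346 in controls, 25601 to 43299 in heterozygotes and 56849 to 75181 in homozygotes. Epicardial markers rose in 4 of 6 cases (summed level 411 to 473 in controls and 572 to 639 in homozygotes), 1 of 10 endothelial and endocardial markers rose and 3 fell, and 2 of 7 cushion mesenchyme markers fell. Macrophage markers summed to 15.9 to 22.2 in controls and 12.5 to 25.0 in homozygotes, and liver and endoderm markers to 58.4 to 798 and 7.19 to 73.2, the highest value being that of control replicate 1. The part of these marker shifts in the troponin results was not tested.

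Expressed per kilobase of transcript, the order of the troponins was the same in all 3 genotypes apart from one pair of neighbours. In controls *Tnnt2* was highest at 1430 ± 123 CPM per kb (SD, n = 3), followed by *Tnni1* at 1036 ± 69.1, *Tnnc1* (both rows summed) at 993 ± 79.8, *Tnni3* at 319 ± 19.4 and *Tnnt1* at 59.9 ± 8.29. In homozygotes the levels were 1565 ± 113 for *Tnnt2*, 1083 ± 41.0 for *Tnni1*, 1095 ± 29.6 for *Tnnc1*, 401 ± 20.1 for *Tnni3* and 41.1 ± 2.60 for *Tnnt1*. The ranges of *Tnni1* and *Tnnc1* overlapped in each genotype, and within a library *Tnni1* was above *Tnnc1* in 3 of 3 controls, below it in 3 of 3 heterozygotes and below it in 2 of 3 homozygotes. Each of the other neighbours in the order was separated in every library. At the RNA level these hearts held mostly cardiac troponin T and slow skeletal troponin I, with *Tnni3* well below *Tnni1* and *Tnnt1* far below *Tnnt2*.

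**Figure D1:**
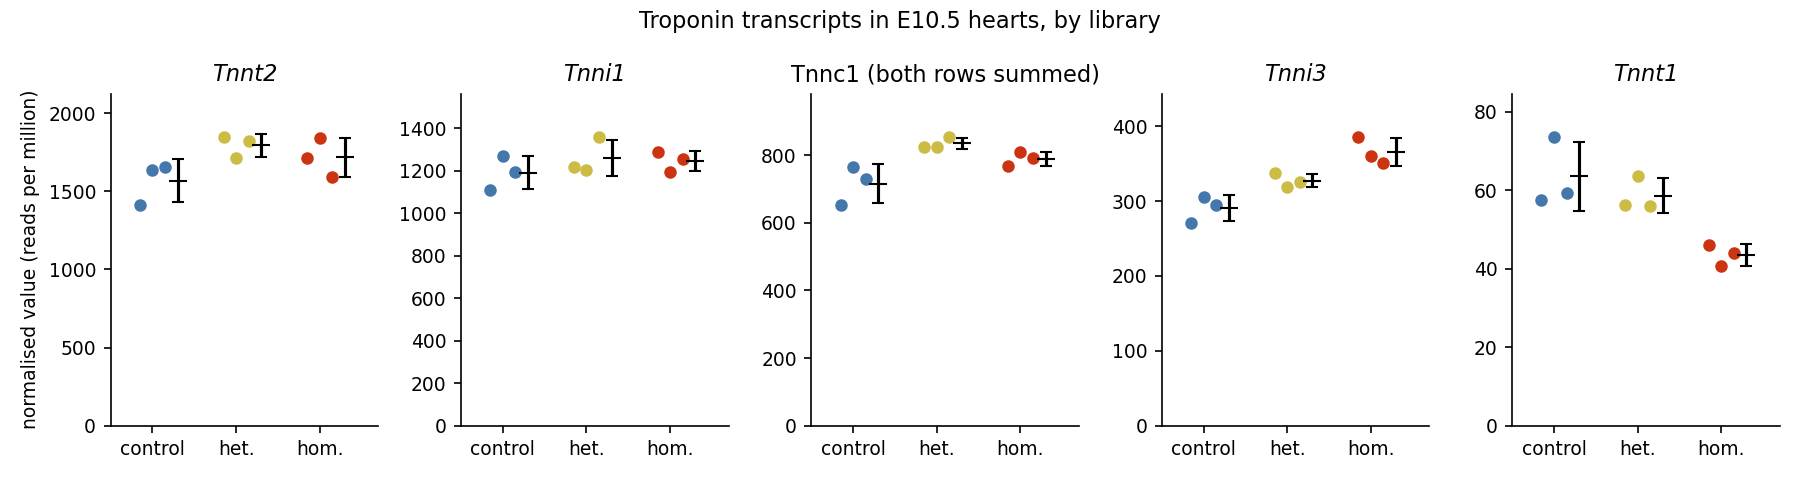
Normalized value (CPM, linear axis from 0) of each troponin in the 9 libraries, with points for libraries and black bars for mean ± SD (n = 3) by genotype. The 3 homozygote libraries lie below all others for *Tnnt1* (40.5 to 46.0) and above all others for *Tnni3* (350 to 386).

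The first comparison asked which troponins differ in hearts that lost *Ctcf*. *Tnnt1* fell and its neighbour *Tnni3* rose in homozygotes against controls, whereas the differences of *Tnnt2*, *Tnni1* and *Tnnc1* did not pass the test. With an adjusted p under 0.05 across all genes, 2 of the 6 troponin rows were called, against a background of 15.2% of all 14011 genes (7.19% higher and 8.03% lower). The libraries of 3 of the 6 rows did not overlap between these genotypes, against 33.2% of all genes (16.6% higher and 16.5% lower).

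*Tnnt1*, the slow skeletal troponin T, was at 57.6, 73.6 and 59.3 CPM in controls and at 46.0, 40.5 and 44.0 in homozygotes. Every homozygote library lay below every control library, and the mean was 0.686 times that of controls. The difference was −0.53 on the log2(value + 0.5) scale used for all fold changes here (SE 0.095, adjusted p = 0.00269). The values rest on 202 to 723 reads per library, the fewest of the 5 members. *Tnnt1* was lower in homozygotes whichever library was left out (−0.60 to −0.42, adjusted p 0.00317 to 0.0120).

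*Tnni3*, the adult cardiac troponin I, was at 271, 306 and 295 CPM in controls and at 386, 360 and 350 in homozygotes. The lowest homozygote value exceeded the highest control value, and the mean was 1.26 times that of controls. The log2 difference was 0.33 (SE 0.060, adjusted p = 0.00313), and it lay between 0.28 and 0.37 whichever library was left out (adjusted p 0.00457 to 0.0159).

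*Tnnt2*, the cardiac troponin T and the most abundant member, was at 1413, 1639 and 1655 in controls and at 1715, 1842 and 1594 in homozygotes. The ranges overlapped, and the log2 difference of 0.13 (SE 0.080, adjusted p = 0.300) was within the spread of libraries. *Tnni1*, the embryonic troponin I, was at 1109, 1268 and 1195 in controls and at 1287, 1194 and 1256 in homozygotes. Its ranges overlapped too, with a log2 difference of 0.07 (SE 0.071, adjusted p = 0.584). Neither gene was called under any scaling in this comparison, but the differences moved: relative to the cardiomyocyte markers they were 0.34 for *Tnnt2* (adjusted p = 0.0837) and 0.27 for *Tnni1* (adjusted p = 0.159), and with the trend with length removed −0.0022 and −0.06.

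*Tnnc1*, the calcium-binding subunit, was at 653, 765 and 730 in controls and at 767, 810 and 792 in homozygotes when both rows were summed. The summed values just failed to overlap, but the log2 difference of 0.14 (SE 0.064) did not pass the test (adjusted p = 0.154). The rows taken singly gave 0.15 (adjusted p = 0.131) and 0.14 (adjusted p = 0.151). Relative to the cardiomyocyte markers both rows were called higher, at 0.36 (adjusted p = 0.0421) and 0.35 (adjusted p = 0.0486), and with the trend with transcript length removed they were at −0.05 and −0.07, so the sign of the *Tnnc1* difference changed with the scaling (adjusted p 0.0421 to 0.984 over the alternatives).

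**Figure D2:**
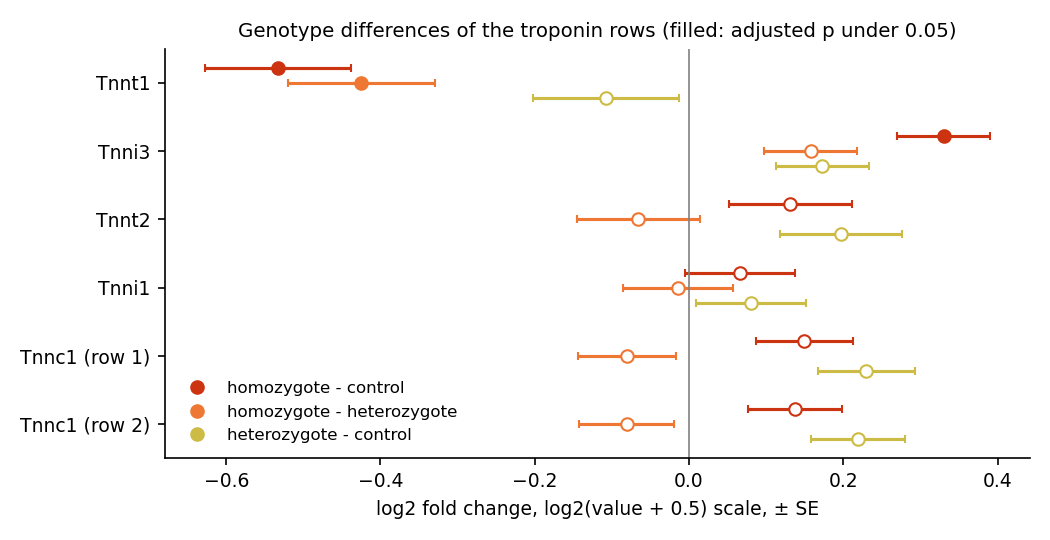
Log2 fold change (log2(value + 0.5) scale, ± SE) of the 6 troponin rows in the 3 genotype comparisons, filled where the adjusted p was under 0.05. Filled points are *Tnnt1* in both comparisons with homozygotes (−0.53 and −0.43) and *Tnni3* against controls (0.33).

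Genes were also ordered by the length of their longest coding transcript and divided into 10 bins of like size. All 6 troponin rows fell in the bin of the shortest transcripts (82 to 1167 bases), and fold changes of all genes moved with transcript length. The median log2 difference between homozygotes and controls was 0.19 in the shortest bin and −0.19 in the longest, where transcripts ran from 6353 bases upwards. When the trend with length was removed in each library, the *Tnni3* difference was 0.16 and no longer passed the test (adjusted p = 0.116), while *Tnnt1* was lower by a wider margin, at −0.67 (adjusted p = 0.00037). That was the only one of 22 alternative analyses in which the *Tnni3* call was lost, and its adjusted p ranged from 0.00252 to 0.116 over them. For *Tnnt1* the range was 0.00037 to 0.103, and the call was lost only when values were taken relative to the cardiomyocyte markers (−0.32), a scaling that moved the median of all genes by 0.21. These 15 markers did not move together, with log2 differences from −1.13 to 0.26. Whether that scaling carries the trend with length was not tested.

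**Figure D3:**
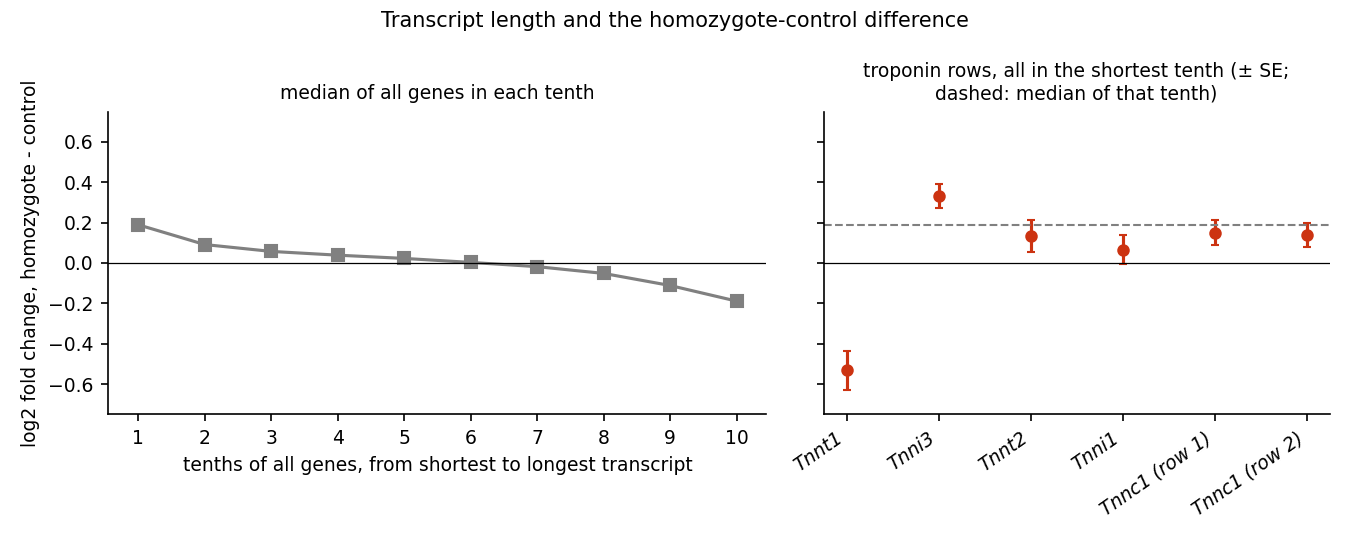
Log2 fold change between homozygotes and controls: on the left the median of all genes in 10 bins ordered by transcript length, and on the right the troponin rows ± SE with the median of the shortest bin as a dashed line. The medians run from 0.19 to −0.19, *Tnni3* (0.33) lies above the dashed line and *Tnnt1* (−0.53) lies far below it.

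The comparison of homozygotes with heterozygotes, which both carry Cre, asked the same question with Cre held constant. *Tnnt1* was again lower in homozygotes, and it was the only troponin called, 1 of 6 rows against a background of 13.6% of all genes (6.87% higher and 6.70% lower). Heterozygote libraries held 56.2, 63.6 and 55.9 CPM of *Tnnt1*, all above the homozygotes, and the log2 difference was −0.43 (SE 0.095, adjusted p = 0.0110). It was called whichever library was left out (adjusted p 0.00504 to 0.0474), but missed the threshold when the spread was estimated without its trend with expression level (adjusted p = 0.0527) and was −0.08 relative to the cardiomyocyte markers (adjusted p = 0.645). That second scaling moved the median of all genes by 0.34, and the summed markers were higher in heterozygotes than in homozygotes.

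*Tnni3* was at 337, 319 and 326 in heterozygotes, all below the homozygotes, with a log2 difference of 0.16 (SE 0.060, adjusted p = 0.103). The difference was 0.02 once the trend with length was removed, and it reached 0.50 relative to the cardiomyocyte markers (adjusted p = 0.00254). *Tnnt2* (1849, 1712 and 1825 in heterozygotes), *Tnni1* (1219, 1201 and 1359) and *Tnnc1* (825, 826 and 854, both rows summed) differed from homozygotes by −0.07, −0.01 and −0.08 on the log2 scale, with adjusted p from 0.452 to 0.922. *Tnnc1* nevertheless had all homozygote libraries below all heterozygote libraries, and both of its rows were called lower, at −0.25, when the trend with length was removed (adjusted p 0.0195 and 0.0198), but not with the length of all exons (−0.21, adjusted p 0.0524 and 0.0532). Relative to the cardiomyocyte markers the sign turned for *Tnnc1* (0.27 in both rows, adjusted p = 0.0709), *Tnnt2* (0.28, adjusted p = 0.0871) and *Tnni1* (0.33, adjusted p = 0.0470). The libraries of 4 of the 6 troponin rows did not overlap between these genotypes, against 30.8% of all genes (15.3% higher and 15.5% lower). Both rows of *Tnnc1* are among them and stand for the same gene.

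Heterozygotes were compared with controls to see what Cre and the loss of 1 *Ctcf* copy bring together. No troponin row was called by limma, against a background of 0.143% of all genes (20 genes, 0.0928% higher and 0.050% lower). At an unadjusted p under 0.05 there were 4 of 6 rows, all higher in heterozygotes, and 1032 genes in all. Both rows of *Tnnc1*, which stand for the same gene, are among the 4. edgeR called 21 genes and none of the troponins. *Tnnc1* had log2 differences of 0.23 (unadjusted p = 0.00285, adjusted p = 0.330) and 0.22 in its rows, *Tnnt2* 0.20 (adjusted p = 0.617) and *Tnni3* 0.17 (adjusted p = 0.520). For these 4 rows every heterozygote library lay above every control library, against 14.3% of genes with no overlap (7.41% higher and 6.93% lower). Relative to the cardiomyocyte markers, whose summed level was 17335 to 20352 in controls and 19621 to 23253 in heterozygotes, the 4 differences were 0.09 and 0.08 for *Tnnc1*, 0.06 for *Tnnt2* and 0.03 for *Tnni3*. *Tnni1* and *Tnnt1* overlapped, with log2 differences of 0.08 and −0.11. *Tnni3* thus lay in the order control, heterozygote, homozygote with no overlap between neighbouring genotypes. The steps on either side of the heterozygotes did not pass the test on their own. The step from heterozygotes to homozygotes was 0.02 once the trend with length was removed. The share of all genes that lie in such an order was not counted. These 3 comparisons share libraries with each other.

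Ratios between troponins within a library hardly depend on the factor by which that whole library is scaled. Quantile normalization and removal of the trend with length can still change them. 6 ratios were tested with an exact permutation test of the F statistic for the 3 genotypes over the 9 libraries (one-sided in F, 1680 labelings, smallest possible p 0.00357), adjusted over the 6. With 3 libraries against 3, an exact test of a pair of genotypes cannot go below 0.10, so pairs are given with their SE, and each p given for a ratio is that of the test over the 3 genotypes.

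Of the 6 ratios, that between the chromosome 7 neighbours had the smallest exact p. It combines the *Tnni3* and *Tnnt1* differences given above, from the same libraries, and is no separate evidence for them. Per kilobase, *Tnni3* was 5.44, 4.81 and 5.74 times *Tnnt1* in controls, 6.91, 5.79 and 6.71 times in heterozygotes and 9.65, 10.2 and 9.16 times in homozygotes. None of the 3 genotypes overlapped with another, but the highest control (5.74) and the lowest heterozygote (5.79) were close. After quantile normalization controls and heterozygotes overlapped. The log2 ratio was higher by 0.86 in homozygotes than in controls (SE 0.088) and by 0.58 than in heterozygotes (SE 0.091), with an exact p of 0.00357 (adjusted 0.0214), the smallest the test can give. The adjusted p stayed at 0.0429 or below whichever library was left out. Of 18 alternatives only the replicate block ended the call (adjusted p = 0.0833, with a smallest possible exact p of 0.0278).

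*Tnni3* made up 23.6%, 23.3% and 23.7% of the troponin I transcripts (*Tnni1* and *Tnni3*, per kilobase) in controls. The mean share was 23.5% ± 0.200 in controls, 24.7% ± 1.37 in heterozygotes and 27.0% ± 0.853 in homozygotes (SD, n = 3). All homozygote libraries lay above all others, from 26.0% to 27.6%, while heterozygotes spread from 23.2% to 25.9% and overlapped with controls. The largest 95% Wilson interval of a single library was ±1.08 percentage points, which covers counting error only. The log2 ratio of *Tnni3* to *Tnni1* was higher by 0.26 in homozygotes than in controls (SE 0.037, exact p = 0.0214, adjusted 0.0429). With 8 libraries that call held in 1 of 9 leave-one-out analyses (adjusted p 0.0214 to 0.107). The call was also lost with the trend with length removed (0.22, adjusted p = 0.0857). Over all 18 alternatives it held in 8.

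*Tnnt1* made up 4.02% ± 0.434 of the troponin T transcripts (*Tnnt1* and *Tnnt2*, per kilobase) in controls, 3.28% ± 0.371 in heterozygotes and 2.57% ± 0.298 in homozygotes (SD, n = 3). Controls ranged from 3.57% to 4.44% and homozygotes from 2.22% to 2.78%, with no overlap. The log2 ratio of *Tnnt1* to *Tnnt2* was −0.66 in homozygotes relative to controls (SE 0.138, exact p = 0.00714, adjusted 0.0214), and the call held in 6 of 9 leave-one-out analyses (adjusted p 0.0214 to 0.0643). The call was also lost after quantile normalization (−0.55, adjusted p = 0.0857). Over all 18 alternatives it held in 13.

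The balance between subunits, as opposed to isoforms, showed no difference that passed the test. The chromosome 1 neighbours had a log2 ratio of *Tnni1* to *Tnnt2* that was −0.06 in homozygotes relative to controls (SE 0.092, adjusted p = 0.549). Summed troponin I over troponin C was −0.01 (SE 0.055, adjusted p = 0.182) and summed troponin T over troponin C −0.03 (SE 0.057, adjusted p = 0.761). In heterozygotes troponin I over troponin C was −0.12 relative to controls (SE 0.031), with all heterozygote libraries below all controls.

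**Figure D4:**
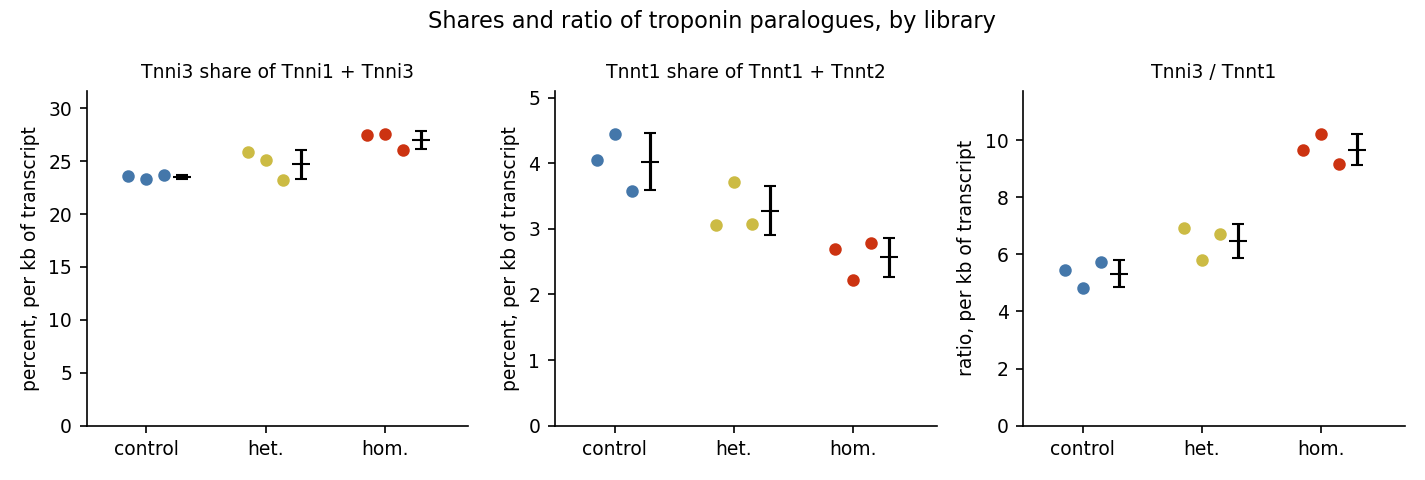
Share of *Tnni3* among troponin I transcripts, share of *Tnnt1* among troponin T transcripts (percent, per kb) and the *Tnni3* to *Tnnt1* ratio in each library, with mean ± SD (n = 3) as black bars. The homozygote libraries have the highest *Tnni3* shares (26.0% to 27.6%), the lowest *Tnnt1* shares (2.22% to 2.78%) and the highest ratios (9.16 to 10.2).

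The fast skeletal troponins, which are the same subunits of fast muscle fibres, were present at low levels. *Tnni2* was at 18.6, 21.8 and 19.7 CPM in controls, 25.1, 26.3 and 19.5 in heterozygotes and 4.88, 3.47 and 3.02 in homozygotes, a log2 difference of −2.28 in homozygotes against controls (adjusted p = 2.95e-06). *Tnnt3* was at 8.67, 7.88 and 8.99 in controls, 6.91, 8.77 and 10.5 in heterozygotes and 20.1, 20.6 and 16.9 in homozygotes, a log2 difference of 1.12 (adjusted p = 0.000452). Both were called against controls and against heterozygotes, so that the fast isoforms of troponin I and T moved in the opposite directions to *Tnni3* and *Tnnt1*. Fast troponin C, *Tnnc2*, was not analysed here. Of the 12 skeletal muscle markers, 4 were measured (summed level 38.9 to 40.6 in controls, 42.3 to 45.2 in heterozygotes and 47.7 to 60.9 in homozygotes), and the defining myogenic factors *Myod1*, *Myf5* and *Myog* were not analysed here. *Mylpf*, a fast myosin light chain, rose from 16.7 to 30.9 (adjusted p = 0.000207), and *Mybpc1*, a myosin-binding protein of slow muscle, fell from 12.3 to 7.82 (adjusted p = 0.0239).

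Most thin filament genes, the partners of the troponins, did not pass the test. Of 20 rows, 2 rose and 3 fell in homozygotes against controls, where 7.19% of all genes rose and 8.03% fell, with a median log2 difference of −0.04 beside −0.0011 over all genes. *Tpm1*, the main cardiac tropomyosin and the binding partner of troponin T, rose from 2060 to 2425 CPM (0.24, adjusted p = 0.0343). *Lmod3*, an actin nucleator, rose from 19.5 to 28.6 (0.54, adjusted p = 0.00651), and its relative *Lmod2* fell from 46.6 to 31.3 (−0.57, adjusted p = 0.00237). *Fhod3*, a formin of the sarcomere, fell from 88.6 to 72.5 (−0.29, adjusted p = 0.0410). The remaining call was the lower of 2 rows annotated as *Nrap*, which varied widely (4.02, 6.15 and 8.84 in controls, 3.87, 0.0631 and 0.115 in heterozygotes and 0.114, 0.0846 and 1.49 in homozygotes). Cardiac actin *Actc1*, the most abundant of these genes, was at 5617 and 5771 (0.04, adjusted p = 0.826). Against heterozygotes, where 6.87% of all genes rose and 6.70% fell, none rose and 5 fell: *Acta1*, *Lmod2*, *Fhod3*, *Xirp1* and the other row of *Nrap*, which went from 18.1 to 9.02 (adjusted p = 0.00342). The median of the list was −0.21 beside −0.0045 over all genes.

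The next list held kinases and phosphatases that act on cardiac troponin I, or belong to their families. Of 15 genes, *Prkaca*, the catalytic subunit of protein kinase A, was the only gene called against controls (background 15.2% of all genes), falling from 142 to 119 CPM (−0.26, adjusted p = 0.0305). Against heterozygotes *Prkaca* (−0.25, adjusted p = 0.0341) and its regulatory subunit *Prkar2a* (−0.32, adjusted p = 0.0126) fell, 2 of 15 beside 13.6% of all genes, a share near the background. The medians of the list were −0.03 in both comparisons. *Tnni3k*, a cardiac kinase named for its interaction with troponin I, was at 23.1 and 24.6 in controls and homozygotes (adjusted p = 0.734).

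Transcription factors that are known to act on cardiac sarcomere genes were lower or did not pass the test. Of 17 rows, 5 fell and none rose in homozygotes against controls, where 8.03% of all genes fell and 7.19% rose, and the median log2 difference was −0.18 beside −0.0011 over all genes. The median was −0.32 for the cardiomyocyte markers and −0.19 in the bin of the longest transcripts. The part of either shift in this list was not tested. *Nkx2-5* fell from 75.4 to 38.8 CPM (−0.95, adjusted p = 7.38e-06). It was already at 57.0 in heterozygotes, which carry the same Cre (−0.40 against controls, adjusted p = 0.0974). *Myocd*, a partner of SRF, fell from 59.4 to 39.9 (−0.58, adjusted p = 0.00382), *Mef2c* from 114 to 85.0 (−0.42, adjusted p = 0.00148), *Tbx20* from 236 to 176 (−0.42, adjusted p = 0.00303) and *Mef2d* from 105 to 85.1 (−0.31, adjusted p = 0.0222). *Gata4*, at 239 and 223, did not pass the test (−0.10, adjusted p = 0.286). Against heterozygotes, where 6.70% of all genes fell, 6 fell, *Mef2c*, *Mef2d*, *Srf*, *Myocd*, *Nkx2-5* and *Tbx5*.

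Around the troponin loci, 24 other genes start within 100 kb of a member, and 15 of these were measured. Between homozygotes and controls 4 of these 15 passed the test, each of them higher, beside the background of 15.2% of all genes (7.19% higher). At the *Tnnt1* and *Tnni3* locus these were *6030429G01Rik*, which overlaps the 5′ part of *Tnni3* and rose from 0.609 to 2.43 CPM (1.38, SE 0.297, adjusted p = 0.00808), and *Eps8l1*, an EGF receptor pathway substrate relative that rose from 0.356 to 1.46 (1.21, SE 0.308, adjusted p = 0.0180). Both are near the limit of detection, since 1 read is worth 0.0901 to 0.231 here. *Ppp1r12c*, which starts 14.7 kb downstream of the *Tnnt1* start, was at 52.7 and 52.1 (adjusted p = 0.918), and *Rdh13* was at 36.0 and 36.1 (adjusted p = 0.975). *Tnnt1* was the only one of 6 measured genes of this locus that was called lower.

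At the *Tnnt2* and *Tnni1* locus *Phlda3*, a target of p53, rose from 21.6, 22.2 and 20.4 in controls to 37.8, 27.2 and 30.9 in homozygotes (0.56, SE 0.110, adjusted p = 0.00507), while *Csrp1*, at 337 and 329, and *Lad1*, which lies between both troponins and was at 4.26 and 4.50, did not pass the test. Near *Tnnc1*, *2010107H07Rik* rose from 6.91 to 13.5 (0.94, SE 0.192, adjusted p = 0.00626). *Nisch*, the host gene of *Tnnc1*, was at 511 in controls, 540 in heterozygotes and 445 in homozygotes, and it was called only against heterozygotes (−0.28, adjusted p = 0.0131). Against heterozygotes *6030429G01Rik*, *Phlda3* and *2010107H07Rik* were called as well, all higher.

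**Figure D5:**
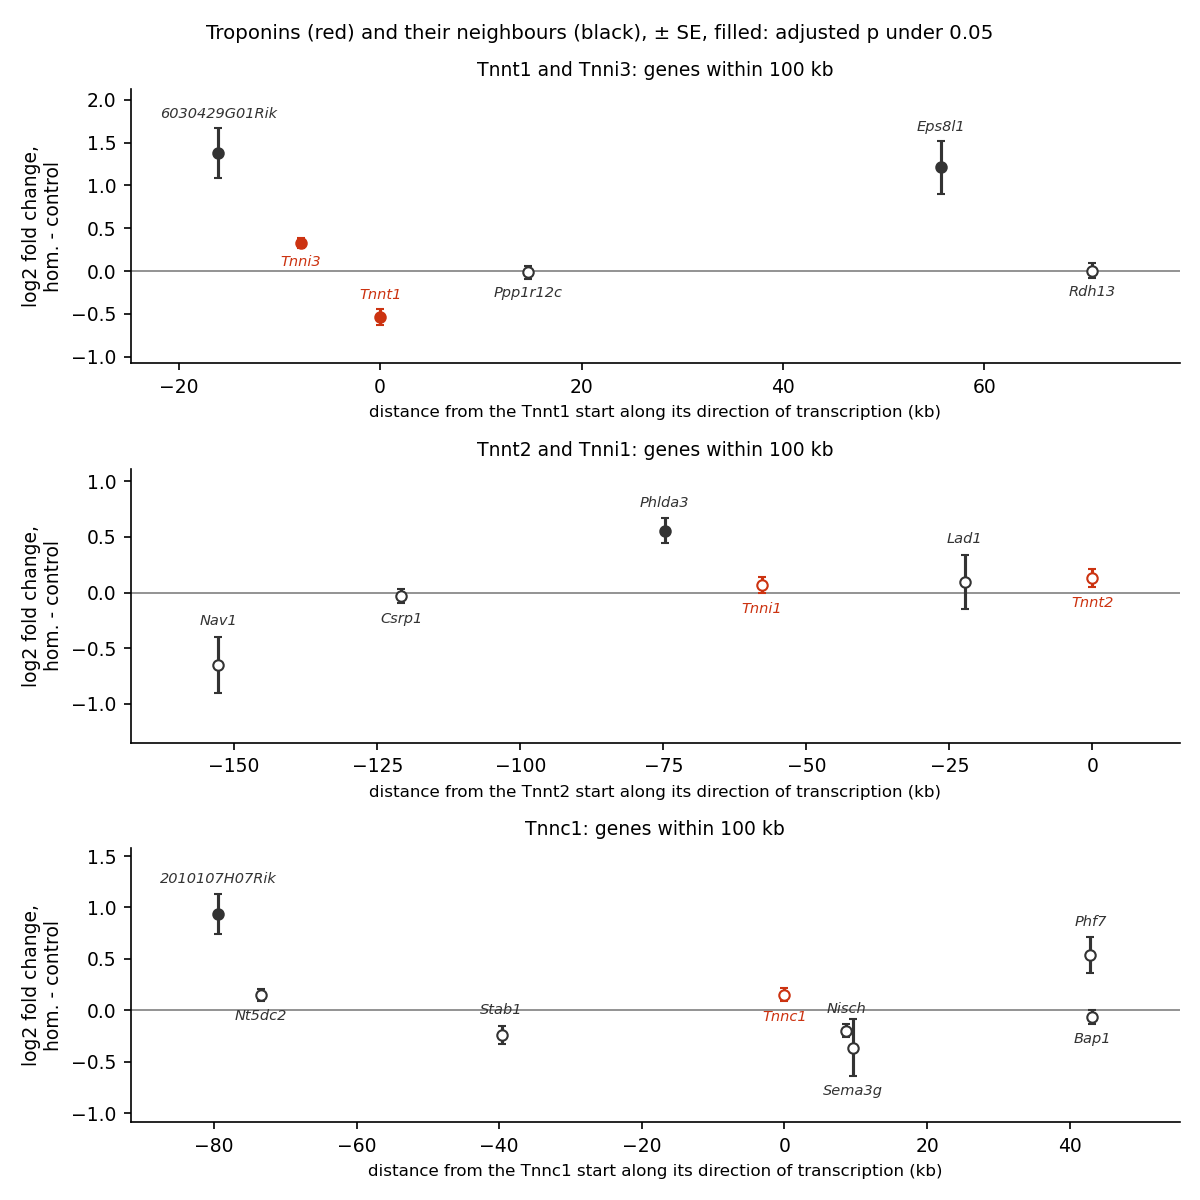
Log2 fold change between homozygotes and controls (± SE) of the troponins (red) and measured genes within 100 kb (black), by distance in kb from the start of *Tnnt1*, *Tnnt2* or *Tnnc1* along its direction of transcription, filled where the adjusted p was under 0.05. *Tnnt1* (−0.53) and *Tnni3* (0.33), whose annotated starts are 7.85 kb apart, are the only filled members, and all filled neighbours are above 0.

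The genes whose profiles over the 9 libraries were closest to the called members were found by the root mean square distance of centred log2 values, among the 9847 genes that averaged 10 CPM or more. For *Tnnt1* these were *Adamts1* (distance 0.0897), *Mark1* (0.0978) and *Inpp4a* (0.0997), where the profile of *Tnnt1* itself had a root mean square of 0.256. Their log2 differences between homozygotes and controls were −0.45, −0.39 and −0.46. For *Tnni3* they were *Mov10l1* (0.0362), *6720456B07Rik* (0.0466) and *Ndufv3* (0.0489, a subunit of respiratory complex I), beside a root mean square of 0.146 for *Tnni3*. Their log2 differences were 0.28, 0.25 and 0.39. These distances are a description over 9 libraries that share their genotype differences.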

How the data were processed

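PolyA RNA of pooled hearts was sequenced with a TruSeq kit whose strand setting is not given in the sources used here. Per the submitters' processing notes, CASAVA 1.8, cutadapt 1.6.1, RSEM 1.20, Bowtie2 0.12.7 and limma were used with build NCBIM37. The authors deposited 1 signal value per gene and library, which equals (whole reads + 0.5) over the TMM-adjusted library total in units of CPM; whole reads were recovered for 100% of values within 0.01. The columns carry genotype names of their own; their genotypes were taken from the study, and group means checked against its supplementary averages. No value column was left unused.

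From these values, log2(value + 0.5) was fitted with limma 3.58.1 (R 4.3.3) with a mean-variance trend over all 14011 genes and 9 libraries, and p-values were adjusted by Benjamini-Hochberg, with 0.05 as threshold. Ratios were tested by exact permutation (Python 3.11.15, SciPy 1.17.1). edgeR 4.0.16 and voom on whole reads, other pseudocounts (0.1 and 1), a filter at a mean of 10, quantile normalization, removal of the trend with length (loess), scaling to cardiomyocyte markers, a replicate block and leaving out each library were alternatives. Scripts were tested on simulated data. Gene models and lengths were from GENCODE M1 (13987 of 14011 genes matched), promoters from RefSeq (all 7 member entries matched the genome once), and copies were sought with BLAST+ 2.17.0. No pair of libraries of 1 genotype was a repeat of the other (chi-square of their counts 3.19 to 7.12 times its degrees of freedom).

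The members, gene lists and tests were chosen with earlier results of these data known. Genes named were drawn from the members, the lists that the text describes, *Ctcf*, measured genes starting within 100 kb of a member, and the 3 genes closest in profile to each called member. Not every gene of the lists or near a member is named. Intervals cover counting error only.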

Additional observations from a re-analysis of the deposited data

How the results depend on the processing

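Of 633 alternative values, 589 kept their side of the threshold or, for counts, stayed within 1.5 times, and 23 of these were values that were not called and changed sign. The *Tnnt1* and *Tnni3* differences between homozygotes and controls were each called in 21 of 22 alternatives. Without the mean-variance trend, 1196 genes were called in homozygotes against controls, 1063 against heterozygotes (with 0 troponin rows) and 10 in heterozygotes against controls. With the trend with length removed, 1281 genes were called in homozygotes against controls (1396 with the length of all exons, an alternative chosen after seeing the data), with 1 troponin row, and 3 rows were called against heterozygotes. Relative to cardiomyocyte markers, 5737 genes and 2 troponin rows were called in homozygotes against heterozygotes (5588 genes higher and 149 lower), 47 genes were called in heterozygotes against controls, and *Tnni1* was 0.33 higher in homozygotes than in heterozygotes (adjusted p = 0.0470, range 0.0470 to 0.933 over its alternatives), the opposite sign to −0.01. Log2 *Tnni3*/*Tnni1* was 0.22 with the trend with length removed (0.28 and called, adjusted p = 0.0286, with the length of all exons) and log2 *Tnnt1*/*Tnnt2* −0.55 after quantile normalization, both no longer called, while log2 (*Tnni1*+*Tnni3*)/*Tnnc1* turned from −0.01 to 0.0689 in homozygotes against controls (SE 0.0549, libraries overlapping, exact p = 0.40) when the trend with the length of all exons was removed. The test of that ratio over the 3 genotypes was then called (adjusted p = 0.0375, range 0.0375 to 0.413), with heterozygotes below both other genotypes. The causes were not tested.

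Leaving out 1 library at a time gave 1049 to 2084 genes in homozygotes against controls, 1023 to 1859 against heterozygotes and 13 to 25 in heterozygotes against controls. The lowest counts came without control replicate 3 (6698891 reads), without homozygote replicate 3 (11629365 reads, also 1267 genes against controls) and without heterozygote replicate 3 (4294537 reads; 1223 genes of homozygotes against heterozygotes). Against heterozygotes the count was 1257 without heterozygote replicate 2. The log2 ratios ranged from 0.24 to 0.30 for *Tnni3*/*Tnni1* and from −0.75 to −0.56 for *Tnnt1*/*Tnnt2*.

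The replicate numbers share only a name: same-numbered libraries correlated between −0.143 and 0.128. With a replicate block, 1756, 1553 and 15 genes were called in the 3 comparisons and the same number of troponin rows, while the ratio differences (0.26 for *Tnni3*/*Tnni1*, −0.66 for *Tnnt1*/*Tnnt2* and 0.86 for *Tnni3*/*Tnnt1*) were not called, with a smallest possible p of 0.0278 over 216 labelings. Not every library correlated best with its own number. With 3 libraries a genotype and 202 to 723 reads, *Tnnt1* rests on the fewest reads of the 5 members.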
